A study of Homo sapiens with 12 samples.

Results

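The ribosomal stalk genes described here are RPL12, RPLP0, RPLP1 and RPLP2. They were taken by their Ensembl identifiers (ENSG00000197958, ENSG00000089157, ENSG00000137818 and ENSG00000177600, with the version dropped), so they are 4 of the 57820 genes counted. All 4 passed the filter on low counts, as did 16920 genes in all. The material was HEK293, a standard cell line of human embryonic kidney origin, sequenced as 12 libraries that make 6 groups of 2. Flp-In T-Rex derivatives stably overexpressed RPL12 with a FLAG/HA tag in 1 of 3 forms: WT, S38A (alanine in place of the serine at residue 38, which cannot be phosphorylated there) or S38D (aspartate in its place, commonly used to imitate phosphorylation). Each form had 2 input libraries, from polyadenylated RNA of a pooled 80S sucrose gradient fraction, and 2 IP libraries, from anti-FLAG immunoprecipitation of the remainder of that fraction.

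Several features of the material limit these groups. The labels describe no removal of native RPL12, so every line is taken to carry the native gene beside the tagged copy. The construct held the RPL12 coding sequence, so counts of RPL12 may mix native and tagged transcripts and are uncertain to that extent. Lines grew out from hygromycin-selected colonies, and the labels do not say how many clones stand behind a line, so form and line coincide. There is no library from cells without tagged RPL12 and none of an IP without the tag. The labels do not say that the 2 replicates of a group came from separate cultures, so p-values capture the spread of these libraries alone, which may be technical. The identity of the cells was not checked against marker genes, because the tables used here do not pair other identifiers with gene symbols.

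The stalk is a flexible arm of the large ribosomal subunit. RPLP0 (uL10) is its scaffold, RPL12 (uL11) sits at its base beside RPLP0, and pairs of RPLP1 and RPLP2 hang from RPLP0 and carry the acidic tails that recruit elongation factors and other translational GTPases. The stalk is also a known activator of the kinase GCN2. The mRNAs of ribosomal proteins are known to begin with a terminal oligopyrimidine tract, a run of C and U at the very 5′ end that ties their translation to growth signals. The title of the series names phosphorylation of RPL12 as a regulator of translation in mitosis. What is measured below is the mRNA of the 4 stalk genes on 80S ribosomes and on ribosomes recovered through tagged RPL12, not the stalk proteins.

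Each of the 4 genes has a run of C and T at or near its annotated start site. The windows below run 5′ to 3′ from 45 bases before the RefSeq start of the gene to 15 bases from it, on build GRCh38.p14. The capitals mark the longest unbroken run of C and T on the sense strand that touches the 10 bases on either side of the start.
RPL12 (chr9:127451392-127451451, minus strand): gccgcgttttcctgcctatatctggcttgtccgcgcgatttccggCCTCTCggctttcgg
RPLP0 (chr12:120201097-120201156, minus strand): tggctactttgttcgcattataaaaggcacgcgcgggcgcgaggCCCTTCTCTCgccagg
RPLP1 (chr15:69452773-69452832, plus strand): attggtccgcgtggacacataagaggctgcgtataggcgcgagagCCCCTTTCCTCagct
RPLP2 (chr11:809922-809981, plus strand): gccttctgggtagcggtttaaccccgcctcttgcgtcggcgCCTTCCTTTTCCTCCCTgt
The run is 6 bases long in RPL12, 10 in RPLP0, 11 in RPLP1 and 17 in RPLP2. In RPL12 and RPLP1 it opens exactly at the annotated start, in RPLP0 at 1 base before it and in RPLP2 at 4 bases before it. Of 35116 promoter windows in the RefSeq table, 31.1% held a run at least as long as that of RPL12 at the same place. The share was 8.1% for RPLP0, 5.97% for RPLP1 and 1.34% for RPLP2. In RPLP0 and RPLP2 part of the run lies before the annotated start, so the run lengths are not tract lengths in the mRNA. These runs describe the annotation and were not measured in the libraries.

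Depth was high for these genes. The input libraries held 7434431 to 8723130 gene counts and the IP libraries 3186164 to 7430881. No stalk gene had fewer than 2710 counts in a library, so counting error was small. In some groups the spread between replicates was about as small, as for RPLP2 in the S38D IP libraries (1023 and 1001.5 CPM). ERCC spike-in RNA took 0.116% to 0.484% of all counts in inputs and 1.44% to 5.43% in IP libraries; the part of this difference in the results below was not tested. By mean level, RPLP0 was the 19th most abundant gene of 16920, RPLP1 the 40th, RPL12 the 88th and RPLP2 the 100th. These are ranks of CPM (a gene's counts relative to the size of its library, with TMM scaling), which do not correct for transcript length and do not order the stalk mRNAs by number of molecules. Together the 4 genes took 0.216% to 0.392% of gene counts in inputs and 0.342% to 0.668% in IP libraries.

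RPL12, the tagged gene, stood in the WT inputs at 565 and 631 CPM, in the S38A inputs at 514 and 343.5 CPM, and in the S38D inputs at 511 and 530.3 CPM. Its IP libraries held 1030 and 1162.5 CPM (WT), 801 and 587 CPM (S38A) and 1004 and 1198 CPM (S38D). Every IP library was above the input of its own fraction, and only the second S38A IP library lay within the range of the inputs. By group mean the order from high to low was S38D IP, WT IP, S38A IP, WT input, S38D input and S38A input. Of the neighbours, the first pair, the pair of S38A IP and WT input, and the last pair overlapped in their libraries. With 2 libraries in a group, overlap or its absence does not test a difference.

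RPLP0, the scaffold, was at 1370.4 and 1612 CPM in the WT inputs, 1166 and 754 CPM in the S38A inputs, and 1159.9 and 1185 CPM in the S38D inputs. The IP values were 2213 and 2719 CPM (WT), 1739 and 1214 CPM (S38A) and 2239.7 and 2327 CPM (S38D). The S38A IP libraries again were the lowest of the IP libraries, and the second of them was below both WT inputs. Group means ran WT IP, S38D IP, WT input, S38A IP, S38D input and S38A input, with overlap in the first, the middle and the last pair.

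RPLP1, one of the acidic tail proteins, was at 1026 and 1105 CPM in the WT inputs, 783 and 532 CPM in the S38A inputs, and 893 and 651 CPM in the S38D inputs. In IP it reached 1873 and 2265 CPM (WT), 1331.5 and 897 CPM (S38A) and 1792 and 1463 CPM (S38D). The WT libraries were highest among both inputs and IP libraries, with no overlap with the other lines. Both WT inputs were above both S38A inputs for 25.8% of all genes, and above both S38D inputs for 18%. No such share was computed for the IP libraries, where RPLP2 had the WT libraries highest without overlap too. The group means ran WT IP, S38D IP, S38A IP, WT input, S38D input and S38A input, and only S38A IP with WT input and S38D input with S38A input overlapped.

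RPLP2, the partner of RPLP1 in the tail pairs, was at 593 and 462 CPM in the WT inputs, 363 and 312 CPM in the S38A inputs, and 486 and 390.4 CPM in the S38D inputs. Its IP values were 1084 and 1165 CPM (WT), 719 and 581 CPM (S38A) and 1023 and 1001.5 CPM (S38D). The second S38A IP library was below the highest WT input, as it was for the other stalk mRNAs. The order of group means was that of RPLP1, and the overlapping neighbours were S38A IP with WT input and WT input with S38D input.

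**Figure D1:**
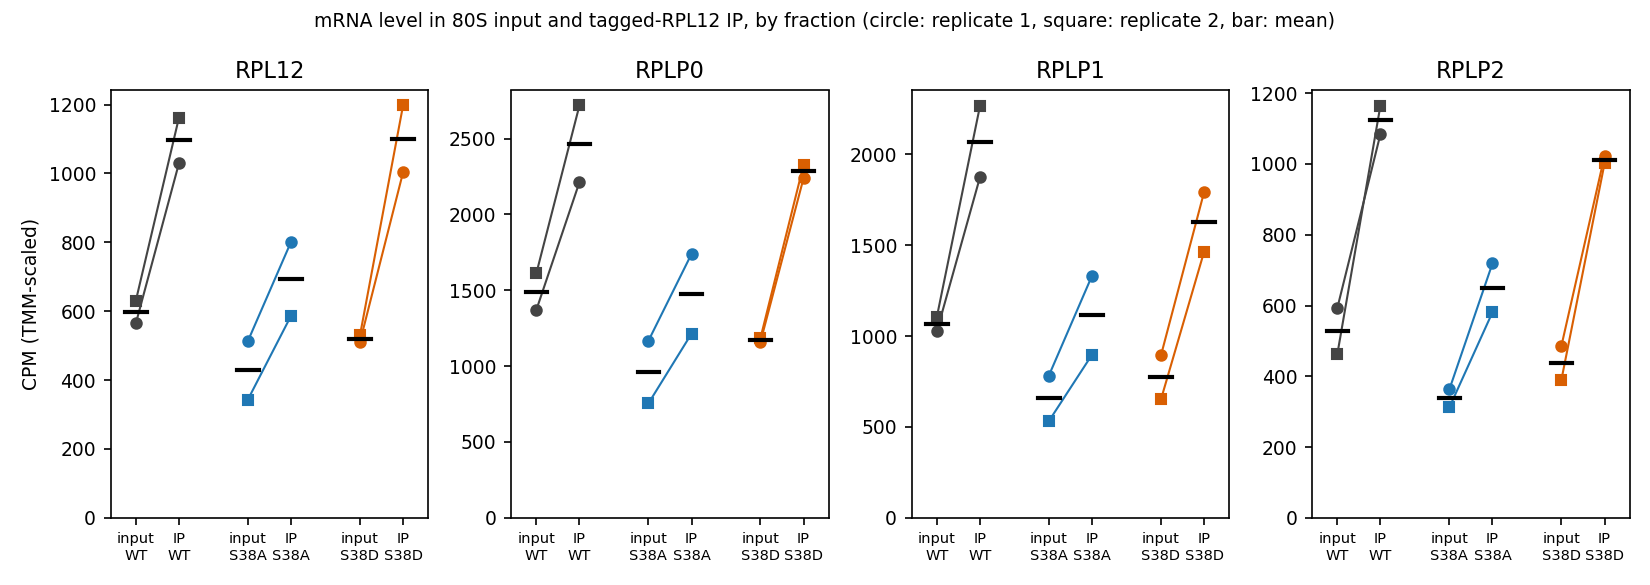
Levels of the 4 stalk mRNAs in CPM (TMM-scaled, linear axis from 0) in the 12 libraries, with lines joining the input and IP library of a fraction and bars at the group means (n = 2). Each of the 6 lines in each panel goes up, and the S38A fractions (blue) end lowest.

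The first comparison asked whether ribosomes recovered through tagged RPL12 carried more or less of these mRNAs than the 80S fraction they came from. All 4 stalk mRNAs were higher in IP than in input over the 3 lines, by 1.71-fold to 2.12-fold. RPLP2 rose most, 2.12-fold (log2 1.08, SE 0.11, edgeR adjusted p = 0.000133). RPLP1 rose 1.91-fold (log2 0.93, SE 0.15, edgeR adjusted p = 0.000752) and RPL12 rose 1.84-fold (log2 0.88, SE 0.13, edgeR adjusted p = 0.000471). RPLP0 rose least, 1.71-fold (log2 0.77, SE 0.14, edgeR adjusted p = 0.00162). The count of 4 of 4 called higher stands against 15.9% of the 16920 genes tested (edgeR quasi-likelihood test, adjusted p under 0.05), where 15.9% were called lower and 31.8% in either direction. Among the 4230 genes with the highest mean CPM, to which all 4 belong, 37.4% were called higher. The median log2 change was 0.91 for the 4 genes, 0.17 for those 4230 and -0.04 for all genes tested.

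The changes were of similar size in each of the 6 fractions. Between the IP and the input library of a fraction, log2 CPM of RPL12 differed by 0.64 to 1.18 (mean 0.89 ± 0.18, SD, n = 6). The range was 0.58 to 0.97 for RPLP0 (0.77 ± 0.16), 0.75 to 1.17 for RPLP1 (0.93 ± 0.16) and 0.87 to 1.36 for RPLP2 (1.09 ± 0.21). IP was above input in 6 of 6 fractions for all 4 genes, which was so for 20.3% of all genes. No stalk gene had all 6 IP libraries above all 6 inputs, as 6.15% of genes did, since the second S38A IP library lay within the inputs each time.

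Between TMM and library totals the size of the rise changed and its direction did not. Both scalings rest on the gene counts of each library, and spike-in scaling was not applied to the IP libraries. With library totals in place of TMM the changes were 0.67 for RPL12, 0.56 for RPLP0, 0.72 for RPLP1 and 0.86 for RPLP2, while the median of all genes went from -0.04 to -0.25. Relative to that median the stalk mRNAs stood as far up as before, which follows because scaling shifts all genes of a library alike. With total counts 7.67% of genes were called higher, and the 4 stalk genes were among them (edgeR adjusted p from 0.000132 for RPLP2 to 0.00514 for RPLP0).

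Among all genes, 549 of 16920 had a larger change than RPL12, 811 than RPLP0, 474 than RPLP1 and 262 than RPLP2. Among the 4230 genes with the highest mean CPM the numbers were 184 of 4230 for RPL12, 303 for RPLP0, 148 for RPLP1 and 75 for RPLP2. The stalk mRNAs were therefore far up the distribution without being at its end.

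**Figure D2:**
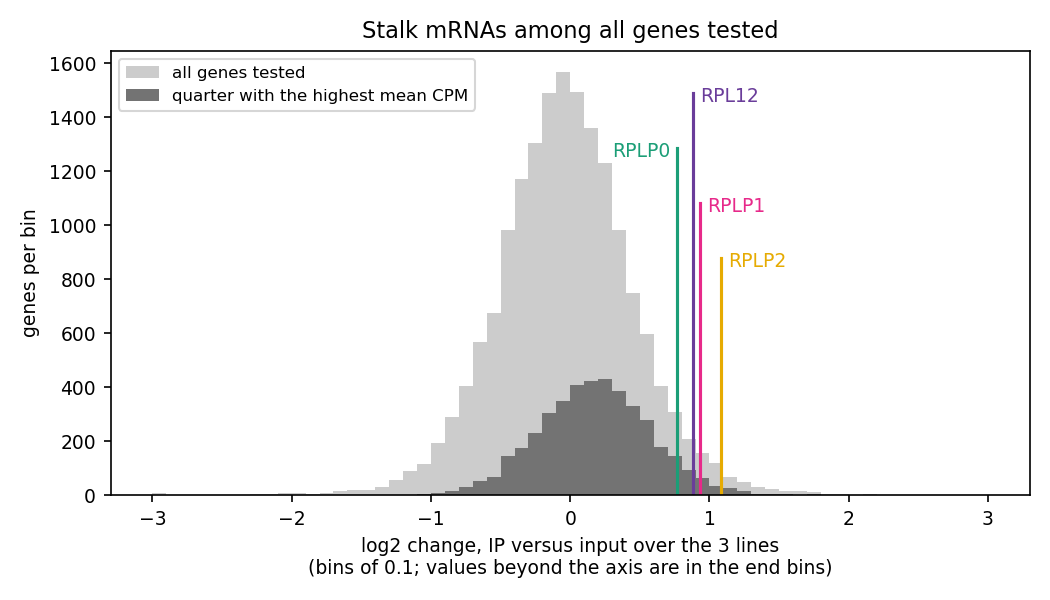
Log2 change in IP versus input over the 3 lines, in bins of 0.1, for all 16920 genes tested (light) and for the 4230 genes with the highest mean CPM (dark), with a vertical line at each stalk gene. The 4 lines lie between 0.77 and 1.08, to the right of most of both distributions.

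Each line was then tested by itself. In WT, RPL12 rose 1.83-fold (edgeR adjusted p = 0.0281), RPLP1 1.94-fold (adjusted p = 0.0341) and RPLP2 2.13-fold (adjusted p = 0.00876). RPLP0 was 1.65-fold higher in WT and did not pass (edgeR adjusted p = 0.0736). These are 3 of 4 genes, against 5.77% of all genes called higher and 5.48% called lower in WT. With the fraction as a block, which uses the pairing of input and IP libraries, RPLP0 passed too (adjusted p = 0.000944), against 14% of all genes called higher. With the block the WT count was 4 of 4. The WT calls of RPL12 and RPLP1 did not hold when any of the 4 WT libraries was omitted. Each such omission left 1 library in a WT group, and calls over all genes changed as well. The log2 changes of RPL12 and RPLP1, 0.87 and 0.96 with all libraries, were 0.80 and 0.90 without the first WT input. They were 0.95 and 1.01 without the second WT input. Without the first WT IP library they were 0.98 and 1.11, and without the second 0.78 and 0.81. Of the 12 omissions, RPLP2 lost its call only in that of the second WT input, where its log2 change was 0.92, from 1.09. With total counts RPL12 and RPLP1 were at adjusted p = 0.0558 and 0.0667, while RPLP0 passed on omission of either S38A input (0.0473 for the first, 0.0467 for the second).

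In S38D the rises were the largest of the 3 lines, and 4 of 4 genes passed, against 3.13% of all genes called higher, 1.74% called lower and 4.87% called in either direction. RPL12 rose 2.12-fold (log2 1.08, SE 0.22, edgeR adjusted p = 0.027), RPLP0 1.95-fold (adjusted p = 0.0456), RPLP1 2.11-fold (adjusted p = 0.0368) and RPLP2 2.31-fold (adjusted p = 0.0196). None of the 4 passed when any of the S38D libraries was left out, but hardly any gene did: 0 of all genes passed without either input or the second IP library, and 4 without the first IP library. For RPL12 the edgeR adjusted p was then 0.156 and 0.194 without the first and second input, and 0.0775 and 0.196 without the first and second IP library. Without the first or second WT input RPLP0 and RPLP1 did not pass (adjusted p from 0.062 to 0.0704), nor with total counts (0.0658 and 0.0535). Changes without 1 of the 12 libraries ranged from 0.86 to 1.37 on the log2 scale over the 4 genes.

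In S38A, 0 of 4 passed in edgeR, where 0 of 16920 genes passed and 2575 had an unadjusted p under 0.05. The values lay above input for each gene. RPL12 was 1.62-fold higher (95% interval 1.16 to 2.26, edgeR adjusted p = 0.194), RPLP0 1.54-fold (1.07 to 2.22, adjusted p = 0.262), RPLP1 1.695-fold (1.15 to 2.49, adjusted p = 0.211) and RPLP2 1.93-fold (1.44 to 2.58, adjusted p = 0.125). The S38A values of RPL12, RPLP0 and RPLP1 depended on single libraries. Without the first S38A IP library RPL12 was at 0.42 on the log2 scale, RPLP0 at 0.30, RPLP1 at 0.41 and RPLP2 at 0.75, from 0.70, 0.62, 0.76 and 0.95. Without the second S38A input they were at 0.43, 0.34, 0.51 and 0.84, and without the first at 1.01, 0.97, 1.07 and 1.06. With the fraction as a block all 4 were called higher (edgeR adjusted p = 0.00705 for RPL12, RPLP0 and RPLP2 and 0.00692 for RPLP1), against 5.92% of all genes. In the S38A line the stalk mRNAs of the first fraction were above those of the second in both input and IP, for RPL12 by 0.29 (input) and 0.22 (IP) above the group mean on the log2 scale. DESeq2 called RPL12, RPLP1 and RPLP2 (adjusted p = 0.0429, 0.0484 and 0.000508), and so did edgeR with no filter on low counts (0.0292, 0.00965 and 0.000685). RPLP0 passed in neither. Over all genes those fits called 463 and 399 in either direction.

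**Figure D3:**
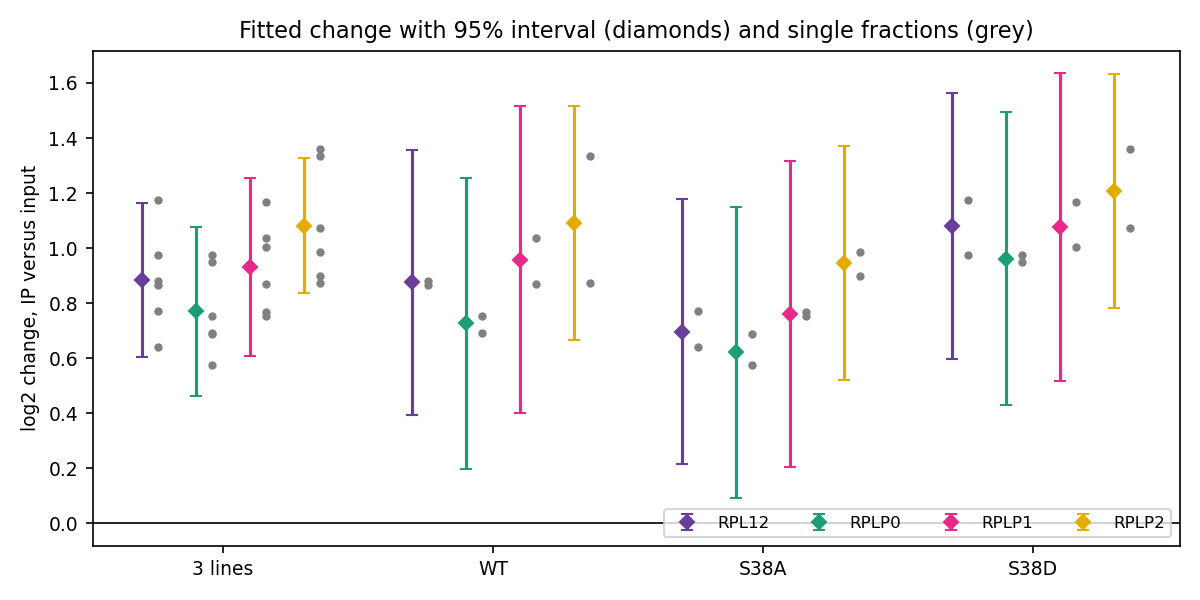
Log2 change in IP versus input for the 4 stalk genes over the 3 lines together and in each line: diamonds are the edgeR estimates with 95% intervals, and grey points are single fractions. The intervals lie above 0 in every case, down to a lower bound of 0.09 for RPLP0 in S38A, although the S38A values did not pass after adjustment over all genes.

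Whether the rise in IP differed between the lines was tested with interaction contrasts, and 0 of 4 genes passed in any of the 3 pairs of lines, where 0 of 16920 genes passed in each. With unadjusted p under 0.05 there were 0 of 4 stalk genes in each pair, and 393, 134 and 109 of all genes in S38A versus WT, S38D versus WT and S38D versus S38A. DESeq2 and voom also called 0 of 4 in each pair, and 0 of all genes. The difference in RPL12 was -0.18 on the log2 scale in S38A versus WT (95% interval -0.86 to 0.50), 0.21 in S38D versus WT (-0.47 to 0.88) and 0.39 in S38D versus S38A (-0.29 to 1.06). With 1 library left out, the RPL12 difference in S38D versus S38A went from 0.0646 (without the first S38A input) to 0.65 (without the second), and that in S38D versus WT from 0.073 (without the second S38D IP library) to 0.33 (without the first). The 3 contrasts share libraries in pairs. For the other stalk genes the differences were -0.20 to -0.11 in S38A versus WT, 0.11 to 0.24 in S38D versus WT and 0.26 to 0.34 in S38D versus S38A. The 95% intervals of the 4 genes reached from -0.98 (RPLP1, S38A versus WT) to 1.10 (RPLP1, S38D versus S38A), so the data neither show a difference between the forms nor show that they act alike.

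With the fraction as a block the intervals were narrower and the calls were the same. In S38D versus S38A the blocked difference was 0.37 for RPL12 (SE 0.14, edgeR unadjusted p = 0.0234, adjusted p = 1), 0.33 for RPLP0 (SE 0.12, unadjusted p = 0.0223, adjusted p = 1) and 0.33 for RPLP1 (SE 0.13, unadjusted p = 0.0338, adjusted p = 1). For RPLP2 it was 0.27 (SE 0.18, unadjusted p = 0.153, adjusted p = 1). None of these passed after adjustment over all genes, of which 578 had an unadjusted p under 0.05 in this contrast with the block and 0 passed. For S38A versus WT and S38D versus WT no stalk gene had an unadjusted p under 0.05 in the block. The lowest in edgeR was 0.0798 for RPLP0 in S38D versus WT. Of all genes, 1177 were under 0.05 in S38A versus WT and 460 in S38D versus WT.

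The next question was whether stalk mRNA in the 80S fraction already differed between lines. All 4 had lower mean levels in S38A than in WT inputs, and 0 of 4 passed (edgeR, where 0 of 16728 genes passed and 2566 had an unadjusted p under 0.05). RPL12 stood at 0.727 of the WT level (95% interval 0.538 to 0.983, edgeR adjusted p = 0.298), RPLP0 at 0.654 (0.465 to 0.918, adjusted p = 0.241), RPLP1 at 0.626 (0.442 to 0.888, adjusted p = 0.22) and RPLP2 at 0.648 (0.488 to 0.862, adjusted p = 0.192). The unadjusted p was under 0.05 for all 4, from 0.00714 for RPLP2 to 0.0402 for RPL12. Both S38A inputs were below both WT inputs for 4 of 4 stalk genes, as they were for 25.8% of all genes. These differences rested on which S38A input was kept. Without the first, they were -0.78 for RPL12 and -0.96 for RPLP0, and both passed (edgeR adjusted p = 0.0373 and 0.0321), as did 495 genes in all. Without the second, they were -0.20 for RPL12, -0.33 for RPLP0, -0.42 for RPLP1 and -0.52 for RPLP2 (edgeR adjusted p = 0.838, 0.767, 0.778 and 0.763), and 2 genes passed in all. DESeq2 called RPLP0, RPLP1 and RPLP2 lower in S38A (adjusted p = 0.035, 0.0242 and 0.019), as did edgeR with no filter on low counts (0.00349, 0.000916 and 0.00298). Over all genes those fits called 419 and 924 in either direction.

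S38D inputs lay between the other lines for each of the 4 mRNAs by group mean. Against WT the log2 differences were -0.18 for RPL12, -0.33 for RPLP0, -0.44 for RPLP1 and -0.25 for RPLP2, and 0 of 4 passed, as against 0.00598% of all genes (edgeR adjusted p = 1 for each). Both S38D inputs were below both WT inputs for 3 of 4 stalk genes, RPLP2 being the exception, and for 18% of all genes. Against S38A the differences were 0.28, 0.29, 0.23 and 0.38 in the same order, and 0 of 4 passed (edgeR adjusted p = 0.959 to 0.961), again against 0.00598% of all genes. Only RPLP2 had both S38A inputs below both S38D inputs, as 16.4% of all genes did.

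**Figure D4:**
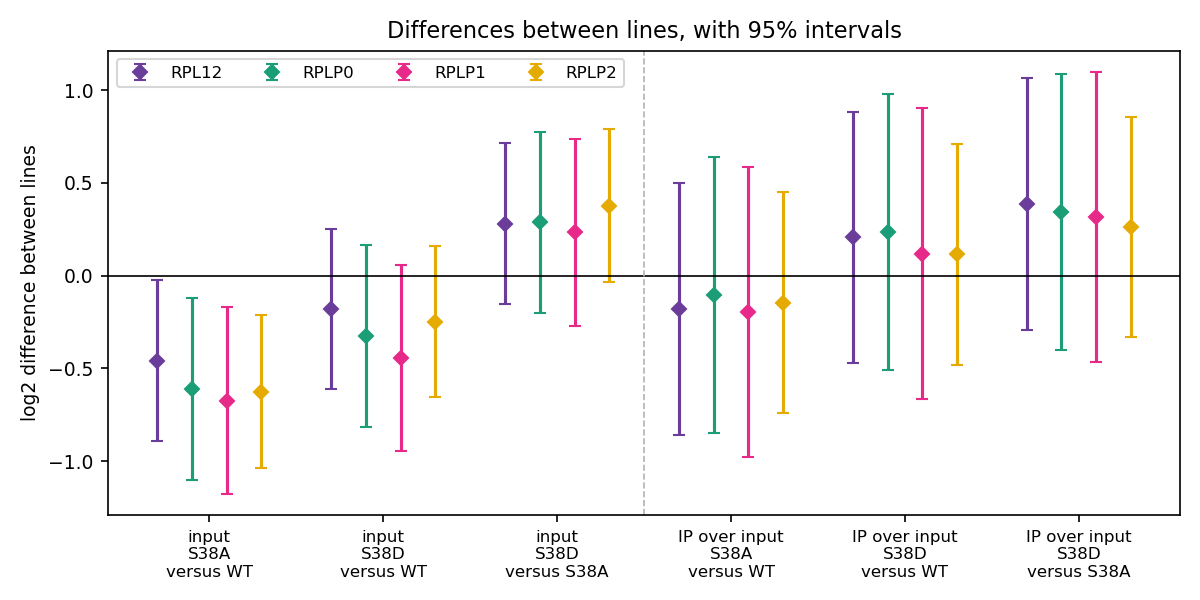
Log2 differences between lines for the 4 stalk genes with 95% intervals from edgeR, in the inputs (left of the dashed line) and in IP over input (right of it). Only the intervals of S38A versus WT in the inputs stay clear of 0, from -0.46 for RPL12 to -0.68 for RPLP1, and none of them passed after adjustment over all genes.

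Spike-in RNA gave another scale for the inputs, which per the labels received equal RNA and equal spike-in. Per 1000 ERCC counts, RPL12 had 517 and 133 counts (WT inputs), 163 and 181 counts (S38A) and 158 and 173 counts (S38D). The first WT input stood apart from the other 5 for every stalk gene, with 1253 RPLP0, 938 RPLP1 and 542 RPLP2 counts per 1000 ERCC counts, against 341 to 397, 212 to 280 and 97.7 to 164 in the others. Fitted on this scale, S38A versus WT was -0.92 for RPL12, -1.06 for RPLP0, -1.15 for RPLP1 and -1.20 for RPLP2, the same direction as in CPM and larger, and none passed (edgeR adjusted p = 1 for each). S38D versus WT was -0.98, -1.10, -1.26 and -1.21 in the same order (edgeR adjusted p = 0.712 for each). These means include the first WT input, and both S38A inputs were above the second WT input for all 4 genes. In CPM both WT inputs were above both S38A inputs.

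Ratios between stalk genes within 1 library do not depend on how libraries are scaled, and the transcript length cancels in their difference between IP and input. RPL12 gained on RPLP0 in IP in 6 of 6 fractions. The log2 ratio of RPL12 to RPLP0 counts was -1.28 and -1.35 for the WT inputs, -1.18 and -1.13 for S38A, and -1.18 and -1.16 for S38D. In the IP libraries it was -1.10 and -1.23 (WT), -1.12 and -1.05 (S38A), then -1.16 and -0.96 (S38D). The mean difference was 0.11 ± 0.07 (SD, n = 6), a ratio 1.08-fold higher in IP. It was small, and in 2 of the 6 fractions the 95% counting interval of the difference included 0.

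RPL12 lost ground to RPLP2, and RPLP0 did so most. The log2 ratio of RPL12 to RPLP2 was lower in IP in 6 of 6 fractions, with a mean difference of -0.20 ± 0.17 (SD, n = 6). It went from -0.01 in the first WT fraction to -0.45 in the second, and its counting interval was off 0 in 5 fractions. The ratio of RPLP0 to RPLP2 was lower in 6 of 6 fractions (mean difference -0.31 ± 0.17), from -0.12 to -0.58. Its counting interval was off 0 in all 6. RPLP1 against RPLP2 went the same way in 6 of 6 fractions (-0.15 ± 0.11), with the interval off 0 in 4. RPLP0 against RPLP1 was also lower in 6 of 6 (-0.16 ± 0.09), again with the interval off 0 in 4. RPL12 against RPLP1 was the ratio that did not hold a direction, with 4 fractions lower and 2 higher (-0.05 ± 0.07). By mean difference the order of gains in IP was RPLP2, then RPLP1 and RPL12, then RPLP0. No test was run on these ratios, and those without RPL12 were added after the data had been seen. The counting intervals leave out the spread between replicates, which over all genes exceeded sampling noise (chi-square per degree of freedom 5.08 to 14.9). The ratios share their genes and are not independent. How often other gene pairs hold a direction in 6 of 6 fractions was not computed.

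RPL12 can be set against RPLP0 in the inputs, where native and tagged RPL12 transcripts may both be counted. There the WT line had the lowest ratio, 0.412 and 0.392 RPL12 counts per RPLP0 count, against 0.440 and 0.456 in S38A and 0.440 and 0.448 in S38D. The WT inputs did not overlap with the others, while S38A and S38D overlapped. In IP the WT ratios, 0.466 and 0.428, overlapped with those of S38A (0.461 and 0.483) and S38D (0.448 and 0.515). How often other gene pairs part the inputs in this way was not computed. With no untransfected cells among the libraries, and counts that do not separate native from tagged transcripts, the share of tagged RPL12 mRNA was not measured.

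Within the S38D line the tail mRNA RPLP1 parted from RPL12 between the fractions. The log2 ratio of RPL12 to RPLP1 was -0.81 and -0.84 in the input and IP library of the first S38D fraction, and -0.30 and -0.29 in those of the second. That of RPL12 to RPLP2 was 0.07 and -0.03 in the first and 0.44 and 0.26 in the second. Both gaps were present in input and IP alike. The gap to RPLP2 was not particular to S38D: this ratio was -0.07 and 0.45 in the WT inputs and 0.50 and 0.14 in the S38A inputs. CPM of RPLP1 was lower in the second S38D fraction in input and IP. CPM of RPLP2 was lower in the second S38D input (486 and 390.4) and hardly differed in S38D IP (1023 and 1001.5). RPL12 was higher in the second S38D IP library (1004 and 1198 CPM). RPLP1 against RPLP2 differed less between the fractions, at 0.88 and 0.81 in the first and 0.74 and 0.55 in the second.

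**Figure D5:**
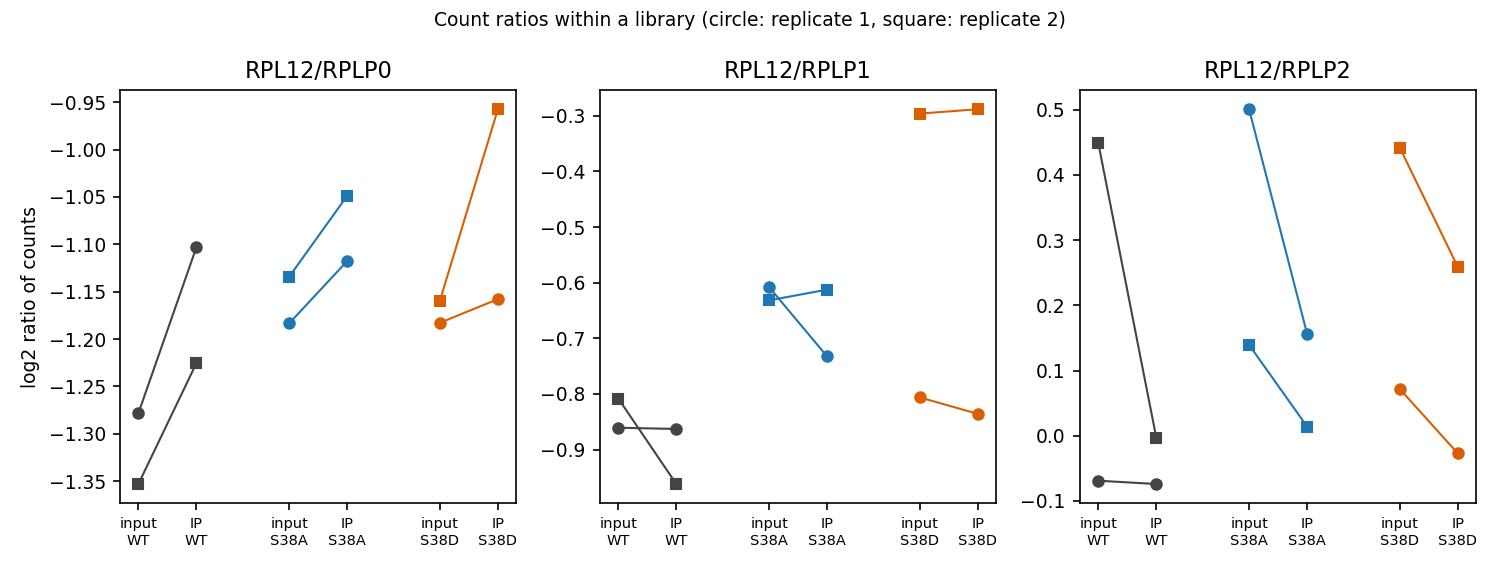
Log2 ratio of RPL12 counts to RPLP0, RPLP1 and RPLP2 counts in each library, with lines joining the input and IP library of a fraction (the 3 vertical axes differ). The RPL12 to RPLP0 lines all go up, the RPL12 to RPLP2 lines all go down, and for RPL12 to RPLP1 the first and second S38D fractions lie apart by about as much in input as in IP.

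Across the 12 libraries the 4 stalk mRNAs moved closely together. Pearson's r of log2 CPM was 0.98 between RPL12 and RPLP0, 0.94 between RPL12 and RPLP1, 0.95 between RPL12 and RPLP2, 0.97 between RPLP0 and RPLP1, 0.94 between RPLP0 and RPLP2 and 0.96 between RPLP1 and RPLP2. The libraries fall into inputs and IP libraries, which share the rise in IP and the scaling of each library. Within the 6 inputs the values were 0.72 to 0.99, lowest for RPL12 with RPLP2, and within the 6 IP libraries 0.86 to 0.98, lowest for RPL12 with RPLP1.

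This likeness was not limited to the stalk. Among 11693 genes with a mean of at least 10 CPM, 664 had r above 0.9 with RPL12, 535 with RPLP0, 440 with RPLP1 and 584 with RPLP2, and for each of them the median gene was near 0 (0.00 to 0.01). For RPL12, 69 genes were closer than RPLP0, 317 closer than RPLP1 and 242 closer than RPLP2. RPLP1 had RPLP0 nearest among the stalk genes, with 22 genes closer, and RPLP2 had RPLP1, with 89 genes closer. The closest genes are not named, because the tables used here pair no other identifier with a symbol.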

How the data were processed

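For each library the authors deposited a table of raw counts by gene. The submitters' processing notes name hg19, DESeq2, STAR 2.4.2a and bcl2fastq 2.16.0.10. Not given in the sources used here are the read counter, the annotation, and how strand and reads shared with near-identical pseudogenes were handled. The counts of these 4 genes, which belong to families with many pseudogenes, are uncertain to that extent. The 92 ERCC rows were kept out of library sizes and tests.

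The tests used edgeR 4.0.16 in R 4.3.3: filterByExpr (minimum count 10), TMM scaling and the quasi-likelihood test, Benjamini-Hochberg adjusted over all genes in each of 10 comparisons. IP was compared with input, and lines in IP over input, in 1 fit of the 12 libraries; the inputs in a fit of the 6 inputs. An SE is the log2 change over the root of the F statistic, and 95% intervals use its degrees of freedom. Log2 CPM has a prior count of 2. Counting intervals of ratios cover counting error only. Per the labels, the input and IP library of a number share a fraction, which pairs them (correlation of deviations from group means 0.28 for WT, 0.64 for S38A and 0.54 for S38D); a fit with the fraction as a block was an alternative.

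Other alternatives were RLE factors, total counts, DESeq2 1.42.0, voom in limma 3.58.1, no filter, mean CPM of at least 10, only the groups compared, inputs scaled to spike-ins, and each library left out in turn. The fits were tested on simulated data with known changes, the same spread for every gene and no effect of the fraction. Of 2-fold changes, 100% were recovered in IP versus input over the 3 lines and 56% in WT. For the inputs of S38A versus WT the share was 54%, and for IP over input in S38D versus WT it was 16%. Of 4-fold changes, 94% to 100% were recovered. The genes and lists were chosen with earlier results of these data known. The rule for names gave the 4 genes and, for others, only those that a table pairs with a symbol. The RefSeq table held 59792 genes, 0 with an Ensembl identifier, so the lists of other ribosomal proteins, elongation factors, kinases, the GCN2 pathway and cell markers gave no values. Replicate pairs differed by more than sampling noise (chi-square per degree of freedom 5.08 to 14.9).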

Additional observations from a re-analysis of the deposited data

Results flagged for a closer look

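In the inputs, the count of each stalk gene per 1000 ERCC counts in the first WT library stood apart from the other 5 libraries by Dixon's criterion (gap over range 0.877 for RPL12, 0.939 for RPLP0, 0.906 for RPLP1 and 0.851 for RPLP2, each above the 95% critical value for 6 samples). These 4 values share 1 denominator, the ERCC count of that library, so they are 1 departure and not 4. Its ERCC share was 0.116%, the lowest of the 6 inputs. By chance about 1 group in 20 passes this criterion. The changes between IP and input over the 6 fractions did not pass it for any stalk gene or ratio.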

How the results depend on the processing

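Omitting fractions for the ratios without RPL12 was chosen after seeing the data and kept every sign; the other alternatives were planned. The one that adds pseudogene counts was not run, since no table names them. Over the 3 lines the 4 stalk genes stayed called in all 19 alternatives. Of all genes, the alternatives that kept every library called 4984 (mean CPM of at least 10) to 7860 (replicate block). In WT the 3 called genes became 1 with total counts and with voom, 0 with only the 4 WT libraries, and 0 to 4 on omitting a library. Over all genes those fits called 2928, 597 and 0 (1903 in the full WT comparison), and 0 where no stalk gene passed on omitting the second WT input. For S38A the 0 became 3 with DESeq2 and with no filter, and 4 with the replicate block. In S38D, 4 became 2 with total counts, where 1622 of all genes were called (824 in the full S38D comparison). With 1 library left out the S38D calls varied, as did those over all genes. For the S38A versus WT inputs 0 became 3 with DESeq2 and with no filter, and 0 to 2 with 1 library left out. The cause was not tested. With 1 library left out the lone library is assumed to vary like the other groups.

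Signs of stalk genes turned only in comparisons where none of the 4 passed. In IP over input, S38A versus WT with 1 library left out ranged from -0.45 to 0.14 for RPL12, -0.42 to 0.25 for RPLP0, -0.54 to 0.11 for RPLP1 and -0.34 to 0.0235 for RPLP2, and RPLP0 was at 0.0285 with total counts. S38D versus WT ranged from -0.0924 to 0.37 for RPLP1 and -0.076 to 0.28 for RPLP2, S38D versus S38A from -0.009 to 0.63 for RPLP0, and the S38D versus S38A inputs from -0.0219 to 0.54 for RPLP1. With spike-in scaling the last comparison was -0.0568 for RPL12, -0.0439 for RPLP0, -0.12 for RPLP1 and -0.0102 for RPLP2. Correlations between same-numbered inputs were -0.07 (WT with S38A), 0.22 (WT with S38D) and 0.11 (S38A with S38D), and no label ties these numbers across lines, so they were not taken as pairs. A replicate block on them changed no call of a stalk gene. Depth limits these 4 genes less than the 2 libraries per group.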
